A study of Mus with 9 samples.

Results

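This report describes 7 genes that mark neutrophils in the kidneys of ageing mice, namely S100a8, S100a9, Retnlg, Csf3r, Ngp, Camp and Ltf. They were chosen by name, with earlier results of these data known, and all 7 were found among the 54532 genes of the deposited table. Kidney RNA came from 9 male C57BL/6 mice that form 3 groups of 3, called 18 mo, 21 mo and 21 mo/O304. All mice, the controls included, had lost 1 kidney by unilateral nephrectomy at 18 months of age. The 18 mo group was killed 1 week after the surgery. The 21 mo group received saline intraperitoneally every day for 12 weeks, and the 21 mo/O304 group received O304 at 10 mg/kg/day over the same time. O304 is a small molecule that activates AMPK, the kinase by which cells sense a shortage of energy. The 18 mo mice thus differed from all others in age, in time since surgery and in the injections, and these cannot be told apart. Whether the kidneys were flushed of blood is not given in the sources used here.

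Neutrophils are short-lived white blood cells that leave the bone marrow, circulate in blood and enter injured or infected tissue. Their granules are filled in sequence while the cells mature in the marrow, so that transcripts of granule proteins such as Ngp, Camp and Ltf belong mainly to immature cells. S100a8, S100a9 and Csf3r stay abundant in mature neutrophils. Blood left in the vessels of a kidney carries neutrophils too, and bulk kidney RNA does not tell them from cells inside the tissue. A group with more of these transcripts may hold more such cells or more RNA per cell, which cannot be told apart in bulk RNA.

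All 7 genes are protein-coding, and no other gene of the table overlaps any of them. Coordinates are those of the table, on GRCm38. S100a8 (ENSMUSG00000056054, chromosome 3, from 90668978 to 90670035, plus strand) and S100a9 (ENSMUSG00000056071, from 90692632 to 90695721, minus strand) are neighbours, separated by 22.6 kb in which the table lists no other gene. Camp (ENSMUSG00000038357, from 109847379 to 109849617, minus strand), Ngp (ENSMUSG00000032484, from 110419747 to 110423012, plus strand) and Ltf (ENSMUSG00000032496, from 111019271 to 111042767, plus strand) all lie on chromosome 9. The 3 granule genes stand in that order within a stretch where Camp and Ltf are 1.17 Mb apart, with 29 protein-coding genes, Ngp among them, between them. Retnlg (ENSMUSG00000022651) lies on chromosome 16 from 48872621 to 48874496, and Csf3r (ENSMUSG00000028859) on chromosome 4 from 126024550 to 126044440, both on the plus strand.

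The counts on genes summed to between 15636378 and 18396725 per library. CPM, counts scaled to library size with edgeR's TMM factors, is used for single genes, and 1 count was worth between 0.0458 and 0.0668 CPM. A count of 3 is taken as the floor and was worth between 0.137 and 0.200 CPM. Kidney markers were plentiful: 11 genes of tubule and glomerulus, such as Lrp2 and Umod, summed to between 10181 and 15347 CPM in 8 libraries and to 4224 CPM in replicate 3 of the 21 mo group. Of the 15902 genes that passed the filter on low counts, 3 had an adjusted p under 0.05 in 21 mo against 18 mo, and none in the other 2 comparisons by edgeR's quasi-likelihood test with Benjamini-Hochberg adjustment. Without adjustment, p was under 0.05 for 4147 genes in 21 mo against 18 mo, 3289 in 21 mo/O304 against 21 mo and 1536 in 21 mo/O304 against 18 mo. Of the 7 neutrophil genes, 5 passed this filter. Ngp and Camp did not, and they are given by their counts.

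The neutrophil genes were low in every kidney, and none of those tested passed the adjusted threshold. Summed over the 7 genes, the level was 12.2, 6.89 and 13.3 CPM in 18 mo mice (replicates 1 to 3) and 65.9, 20.7 and 62.2 CPM in 21 mo mice. It was 14.3, 15.4 and 23.0 CPM in 21 mo/O304 mice. Every 21 mo mouse was thus above every 18 mo mouse, while replicate 2 of the 21 mo group lay below the highest mouse given O304. S100a8 and S100a9 together supplied between 51.9% and 80.8% of the summed counts of a library.

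**Figure D1:**
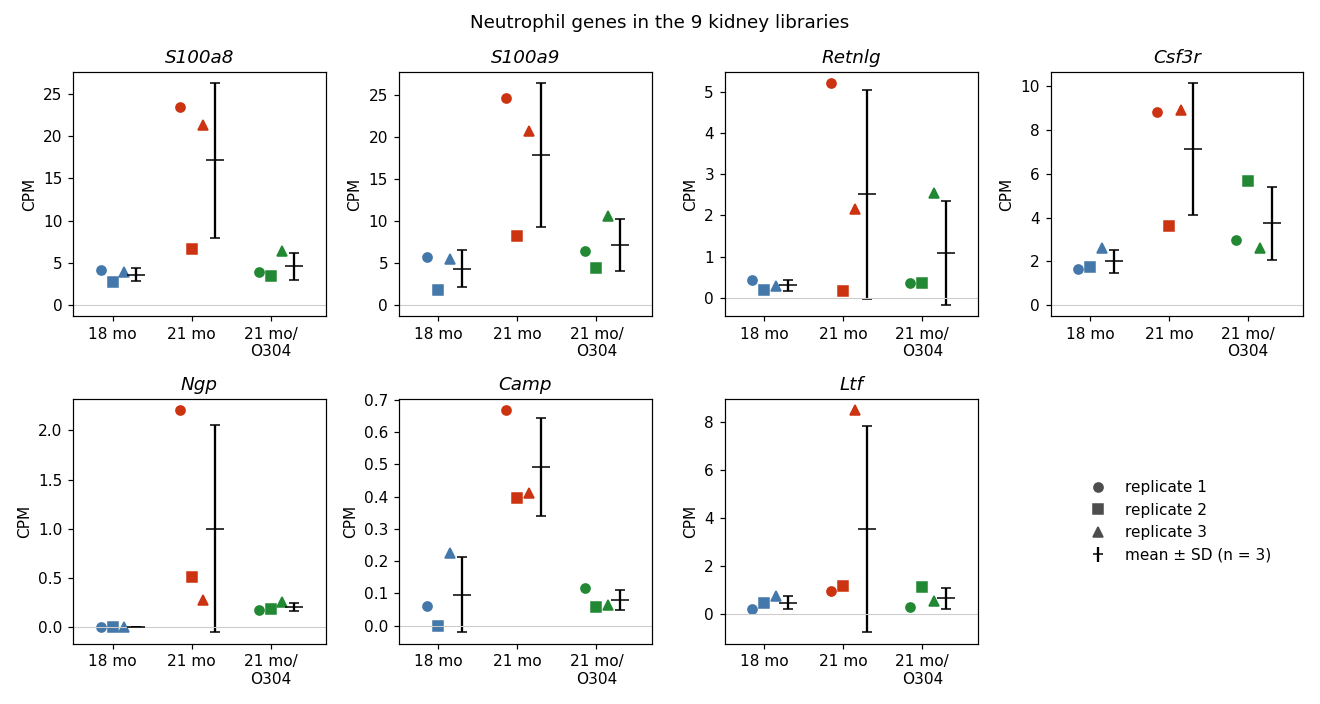
CPM of each of the 7 genes (linear axis, 1 panel a gene, each with its own scale) in the 9 libraries, with 1 point a mouse shaped by replicate number and the mean ± SD (n = 3) beside it in black. Replicates 1 and 3 of the 21 mo group stand highest for S100a8, S100a9 and Csf3r, replicate 1 for Ngp and Camp and replicate 3 for Ltf.

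S100a8 and S100a9 encode the subunits of calprotectin, a calcium- and zinc-binding complex that fills the cytosol of neutrophils and is released at sites of inflammation. S100a8 was at 4.14, 2.71 and 3.95 CPM in 18 mo mice, at 23.5, 6.64 and 21.3 CPM in 21 mo mice, and at 3.89, 3.51 and 6.42 CPM in 21 mo/O304 mice. All 3 mice of the 21 mo group lay above all 6 other mice, although replicate 2 exceeded the highest mouse given O304 by only a little. From 3.60 ± 0.781 CPM to 17.1 ± 9.14 CPM (SD, n = 3 each), S100a8 differed by 2.25 on the log2 scale in 21 mo against 18 mo (SE 0.47, adjusted p = 0.0626, edgeR). It did not pass the threshold of an adjusted p under 0.05. With 3 mice against 3, the exact permutation test (two-sided) gave p = 0.1, the smallest that it can give. Against 21 mo, the log2 fold change with O304 was −1.89 (SE 0.46, adjusted p = 0.175, edgeR), and the groups again did not overlap (exact permutation test, two-sided, p = 0.1).

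S100a9 was at 5.75, 1.85 and 5.48 CPM in 18 mo mice, at 24.7, 8.23 and 20.7 CPM in 21 mo mice and at 6.50, 4.46 and 10.6 CPM in 21 mo/O304 mice. The 21 mo mice lay above all 18 mo mice, but replicate 3 of the 21 mo/O304 group exceeded replicate 2 of the 21 mo group. For S100a9 the log2 fold change was 2.03 (SE 0.54, adjusted p = 0.0816, edgeR) in 21 mo against 18 mo and −1.32 (SE 0.52, adjusted p = 0.215, edgeR) in 21 mo/O304 against 21 mo. Per length, S100a8 stood at between 0.450 and 1.10 times the FPKM of S100a9 in the 9 libraries. FPKM is the authors' count scaled by gene length and library size.

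Csf3r encodes the receptor for G-CSF, the growth factor that drives the production and release of neutrophils, and is also found on monocytes. It was at 1.67, 1.72 and 2.60 CPM in 18 mo mice, at 8.82, 3.63 and 8.92 CPM in 21 mo mice, and at 2.96, 5.65 and 2.61 CPM in 21 mo/O304 mice. As with the calprotectin genes, replicates 1 and 3 of the 21 mo group were high and nearly equal while replicate 2 was lower. Among the mice given O304, however, replicate 2 was the highest for Csf3r and the lowest for both calprotectin genes. The log2 fold change of Csf3r in 21 mo against 18 mo was 1.83 (SE 0.44, adjusted p = 0.0742, edgeR), without overlap between the groups. Between 21 mo/O304 and 21 mo it was −0.93 (SE 0.43, adjusted p = 0.255, edgeR), with overlap. Set against 18 mo, the 3 mice given O304 all lay above the 18 mo mice, if only just, with 0.90 as log2 fold change (SE 0.44, adjusted p = 0.553, edgeR).

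Retnlg encodes resistin-like gamma, a small secreted protein of the resistin family that in mice is made in bone marrow and blood neutrophils. Its counts were 7, 3 and 5 in 18 mo mice, 78, 3 and 47 in 21 mo mice, and 6, 6 and 40 in 21 mo/O304 mice. The gene was thus high in 3 of 9 libraries, with 5.21 and 2.15 CPM in replicates 1 and 3 of the 21 mo group and 2.54 CPM in replicate 3 of the 21 mo/O304 group. Replicate 2 of the 21 mo group, with 3 counts, was at the floor and had no more counts than any 18 mo library. The groups overlapped in all 3 comparisons. The log2 fold change was 3.03 (SE 1.18, adjusted p = 0.153, edgeR) in 21 mo against 18 mo, −1.21 (SE 1.05, adjusted p = 0.506, edgeR) in 21 mo/O304 against 21 mo and 1.82 (SE 1.19, adjusted p = 0.665, edgeR) in 21 mo/O304 against 18 mo. These values turned on single mice. The first was 1.97 without replicate 1 of the 21 mo group. For 21 mo/O304 against 21 mo the value was −0.15 without that mouse and −2.81 without replicate 3 of the 21 mo/O304 group. Without the latter mouse, 21 mo/O304 against 18 mo gave 0.24.

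Ngp, Camp and Ltf encode proteins of the secondary granules, and Ngp and Camp belong to the cathelicidin-related family, of which Camp yields the antimicrobial peptide CRAMP. Ngp, neutrophilic granule protein, had 0 counts in all 3 libraries of the 18 mo group, which allows up to 3 counts, or from 0.169 to 0.186 CPM, in each. It had 33, 9 and 6 counts in 21 mo mice and 3, 3 and 4 counts in 21 mo/O304 mice. All 21 mo mice were therefore above all others, and replicate 1 held most of the counts. Replicate 3, at 0.275 CPM, exceeded the highest mouse given O304, at 0.254 CPM, by only a little. Against the floor of 3 counts per library in 18 mo mice, the mean of 0.997 CPM in 21 mo mice was at least 5.54-fold higher, and at least 2.18-fold higher without replicate 1 of the 21 mo group. For 21 mo/O304 against 21 mo the summed counts were 10 and 48. Scaled by the summed library sizes with TMM factors, their ratio was 0.228 (95% exact interval from 0.103 to 0.456). Without that mouse of the 21 mo group the ratio was 0.529. The 10 counts with O304, against 0 at 18 months, are at or just above the floor, so no fold is given between those groups. The 95% exact interval of their ratio began at 2.26. Such intervals cover counting error only and not the spread between mice.

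Camp had 1, 0 and 4 counts in 18 mo mice, 10, 7 and 9 counts in 21 mo mice and 2, 1 and 1 counts in 21 mo/O304 mice. It was the most even of the 7 genes within 21 mo mice, where the mice ranged from 0.397 to 0.668 CPM, and each exceeded every mouse of both other groups. The ratio of summed counts, scaled as for Ngp, was 4.79 in 21 mo against 18 mo (95% exact interval from 1.81 to 15.96). In 21 mo/O304 against 21 mo it was 0.168 (0.0427 to 0.485). The first ratio was 15.5 without replicate 3 of the 18 mo group, which held 4 of the 5 counts there, and 3.23 without its replicate 2. For Ngp and Camp the exact permutation test (two-sided) gave p = 0.1 in both comparisons. Camp in 21 mo/O304 against 18 mo, with 4 and 5 counts, did not differ detectably at this depth, at a ratio of 0.806 (0.160 to 3.74).

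Ltf encodes lactoferrin, an iron-binding protein of the secondary granules that glandular epithelia also secrete. It had 3, 7 and 13 counts in 18 mo mice, 14, 20 and 186 counts in 21 mo mice and 5, 19 and 8 counts in 21 mo/O304 mice. At 8.51 CPM, replicate 3 of the 21 mo group stood alone, and the other 8 libraries were between 0.186 and 1.14 CPM. The log2 fold change in 21 mo against 18 mo was 2.95 (SE 0.97, adjusted p = 0.110, edgeR), but 1.16 without this mouse. Between 21 mo/O304 and 21 mo it was −2.45 (SE 0.94, adjusted p = 0.205, edgeR), and −0.67 without this mouse.

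**Figure D2:**
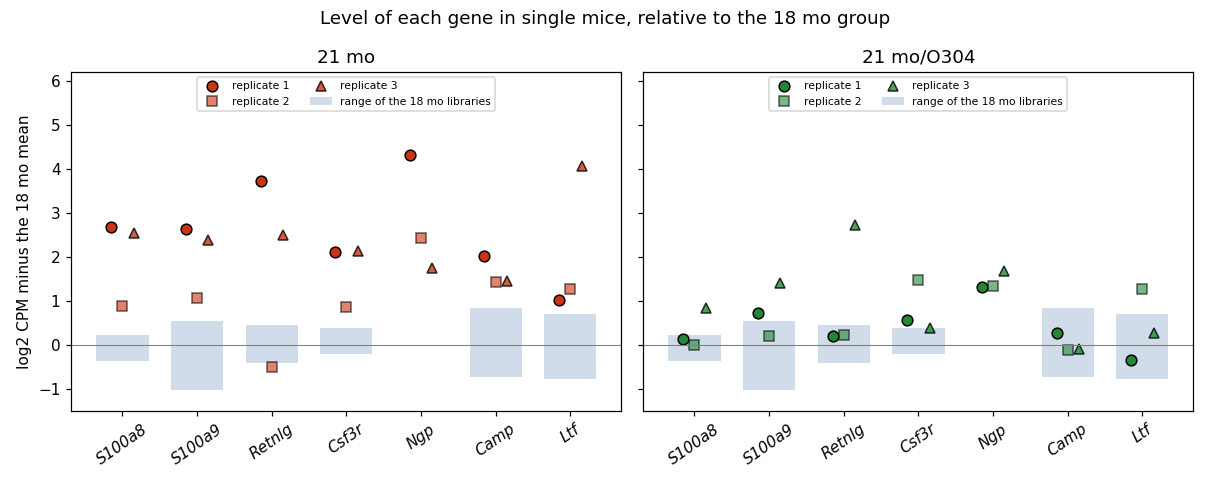
Level of each gene in single mice of the 21 mo (left) and 21 mo/O304 (right) groups, as log2 CPM (prior count of 2) minus the mean of the 18 mo group, with the range of the 18 mo libraries as a blue band (for Ngp all 3 are at 0 counts and the band has no height). Replicate 1 of the 21 mo group stands at 4.31 for Ngp and 1.02 for Ltf, and replicate 3 at 1.75 and 4.05.

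The mice of the 21 mo group differed in which neutrophil genes they carried. S100a8 was nearly equal in replicates 1 and 3, with 351 and 465 counts. Beside it, replicate 1 had 33 counts of Ngp and 14 of Ltf, and replicate 3 had 6 of Ngp and 186 of Ltf. Lactoferrin counts were 0.0399 of those of S100a8 in replicate 1 and 0.400 in replicate 3. The 95% Poisson intervals, from 0.511 to 1.57 CPM and from 7.33 to 9.82 CPM for Ltf and from 1.52 to 3.10 CPM and from 0.101 to 0.597 CPM for Ngp, did not overlap between these mice. In replicate 2, where S100a8 was at 117 counts, Retnlg had 3 counts and Camp 7.

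Ranked per length by mean FPKM, S100a9 and S100a8 led in all groups, at 8.08 ± 3.99 and 5.03 ± 1.04 FPKM in 18 mo mice, 33.1 ± 15.9 and 23.9 ± 12.7 FPKM in 21 mo mice and 13.4 ± 5.77 and 6.45 ± 2.21 FPKM in 21 mo/O304 mice (SD, n = 3 each). The libraries of the pair overlapped in each group. Both lay apart from the genes below them in every group, as S100a8 was at 9.29 FPKM or more in 21 mo mice and no lower-ranked gene exceeded 8.52 FPKM there. Csf3r and Retnlg came next, overlapping each other in every group, and Ltf, Ngp and Camp were last. The means of the last 3 were at most 0.127 FPKM in 18 mo mice, between 0.629 and 0.986 FPKM in 21 mo mice and at most 0.181 FPKM in 21 mo/O304 mice, and their neighbours in rank overlapped.

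Counting over all 7 genes, the libraries did not overlap for 6 in 21 mo against 18 mo, all higher in 21 mo mice, and Retnlg overlapped. Among all tested genes, 13.5% were higher without overlap in this comparison. Between 21 mo/O304 and 21 mo, 3 of the 7 genes were lower without overlap, namely S100a8, Ngp and Camp, beside 10.5% of all tested genes. Set against 18 mo, mice given O304 were higher without overlap for 2 of the 7 genes, Csf3r and Ngp, beside 13.2% of all tested genes. For Ngp, the 3, 3 and 4 counts with O304 were at or just above the floor, against 0 counts in the 18 mo libraries. Ngp and Camp are outside the tested genes from which these shares come.

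None of the 5 tested genes had an adjusted p under 0.05 in any comparison (edgeR), where the share called among all tested genes was 0.0189% in 21 mo against 18 mo and 0% in the other 2 comparisons. At an unadjusted p under 0.05 all 5 were higher in 21 mo against 18 mo, beside 14% of all tested genes. Of the 5, Retnlg passed the filter only through the 3 libraries in which it was high, so its place in this count was tied to the filter. Its groups overlapped (exact permutation test, two-sided, p = 0.4). For O304 against 21 mo, 3 were lower (S100a8, S100a9 and Ltf), beside 12.4% of all tested genes that were lower and 8.27% that were higher. None was in 21 mo/O304 against 18 mo, where 4.33% of all tested genes were higher and 5.33% lower at this p. Their median log2 fold change was 2.25, −1.32 and 0.72 in these comparisons, and that of all tested genes 0.03, −0.02 and 0.00. The comparisons share mice: those of the 18 mo group serve in both comparisons against 18 mo, and each other group also serves in a pair of comparisons. DESeq2 called all 5 in 21 mo against 18 mo, with log2 fold changes from 1.83 to 3.07, where it called 14.2% of all tested genes. It called S100a8 alone of the 5 in 21 mo/O304 against 21 mo (−1.89, adjusted p = 0.00547), beside 6.02% of all tested genes. limma voom with sample quality weights called S100a8, S100a9 and Csf3r in 21 mo against 18 mo, with log2 fold changes between 0.80 and 1.01, where it called 52.9% of all tested genes, and none of the 5 in the other comparisons. Without replicate 1 of the 21 mo group, edgeR called S100a8 (1.97), Csf3r (1.67) and Ltf (3.41) in 21 mo against 18 mo, and S100a8 (−1.61) and Ltf (−2.91) in 21 mo/O304 against 21 mo. That fit called 25.4% and 23.1% of all genes it tested in these comparisons.

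**Figure D3:**
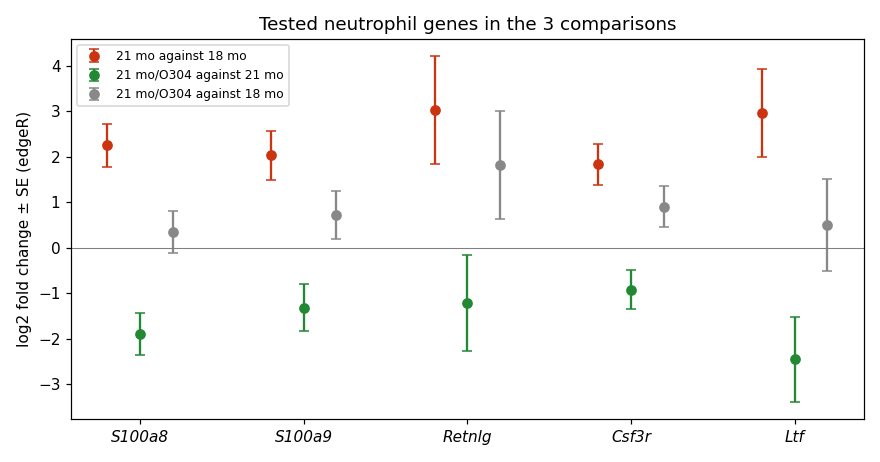
log2 fold change ± SE from edgeR's quasi-likelihood test (vertical axis) of the 5 tested genes in 21 mo against 18 mo (red), 21 mo/O304 against 21 mo (green) and 21 mo/O304 against 18 mo (grey). The red values lie between 1.83 and 3.03 and the green ones between −2.45 and −0.93, and none of the 15 values passed an adjusted p of 0.05.

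Among other genes of neutrophils none passed the adjusted threshold, and several that define the cell were near 0 everywhere. Of 42 further genes listed from knowledge of the cell, 25 were tested. The filter asks for enough counts in any 3 libraries, so a low gene could pass through the 21 mo libraries alone, as Il1r2 did. For such genes the direction in comparisons with the 21 mo group was tied to the filter. In 21 mo against 18 mo, 23 of the 25 had a log2 fold change above 0 and 2 below 0, with a median of 1.49, where 52.7% of all tested genes were above 0. None passed an adjusted p under 0.05 (edgeR), while 18 higher and 1 lower had an unadjusted p under 0.05, beside 14% and 12% of all tested genes. For O304 against 21 mo, 22 of the 25 were below 0 with a median of −1.33, where 51.8% of all tested genes were below 0. In that comparison 11 lower had an unadjusted p under 0.05, beside 12.4% of all tested genes, and again none an adjusted one. Between 21 mo/O304 and 18 mo, 20 were above 0 with a median of 0.52, where 50.4% of all tested genes were above and 49.6% below 0, and only 1, Hdc, lower, had an unadjusted p under 0.05.

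Among 17 granule proteins, all 11 tested genes had log2 fold changes above 0 in 21 mo against 18 mo, from 0.75 to 6.10. Lcn2, lipocalin-2, which injured tubule cells make as well as neutrophils, was at 15.4, 2.09 and 5.71 CPM in 18 mo mice and at 17.5, 322 and 1256 CPM in 21 mo mice (log2 fold change 6.10, SE 1.44, adjusted p = 0.0711, edgeR). It was at 11.8, 3.21 and 9.98 CPM in 21 mo/O304 mice. Lcn2 was therefore near the 18 mo range in replicate 1 of the 21 mo group, the mouse with the most S100a8, S100a9, Retnlg, Ngp and Camp. Lyz2, a lysozyme of neutrophils and macrophages, was at 317, 690 and 2194 CPM in 21 mo mice against at most 179 CPM in 18 mo mice (3.16, SE 0.65, adjusted p = 0.0626, edgeR). Chil3 was at 64.3 CPM in replicate 3 of the 21 mo group and at most 2.16 CPM in all other libraries. Pglyrp1, a peptidoglycan recognition protein of granules, was at 1.94, 1.19 and 5.86 CPM in 21 mo mice and at most 0.734 CPM in 18 mo mice, and Cybb, which encodes a subunit of the NADPH oxidase, at 31.7, 31.6 and 68.5 CPM and at most 21.0 CPM. With O304 both overlapped the 21 mo group, as replicate 2 was at 1.67 CPM for Pglyrp1 and 35.7 CPM for Cybb. The proteases of the primary granules, transcribed in the earliest marrow precursors, were all but absent, as Mpo had at most 11 counts in a library, Elane 6 and Ctsg 1. Prtn3 passed the filter, with at most 47 counts, and its log2 fold change was 1.00 in 21 mo against 18 mo (SE 0.86, adjusted p = 0.473, edgeR).

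Of 25 surface and cytosolic genes 14 were tested. Cxcr2, the chemokine receptor that leads neutrophils out of the marrow and into tissue, stood in the same order of replicates as the calprotectin genes, with 2.81, 1.19 and 2.20 CPM in 21 mo mice. It was between 0.371 and 0.554 CPM in 18 mo mice and between 0.232 and 0.655 CPM in 21 mo/O304 mice, so that the 21 mo mice stood above all 6 others. The log2 fold change of Cxcr2 was 2.15 (SE 0.50, adjusted p = 0.0697, edgeR) in 21 mo against 18 mo and −2.07 (SE 0.49, adjusted p = 0.175, edgeR) in 21 mo/O304 against 21 mo. Il1r2, the decoy receptor for IL-1, was at 0.735, 1.25 and 4.85 CPM in 21 mo mice and at most 0.407 CPM in the other mice. Clec4d and Fpr2, receptors for microbial lipids and formyl peptides that macrophages share, were at 27.2 and 6.13 CPM in replicate 3 of the 21 mo group and at most 2.00 and 1.67 CPM elsewhere. Hdc, histidine decarboxylase, differed from these genes. It was between 3.73 and 7.36 CPM in the 18 mo and 21 mo groups alike and between 2.50 and 3.31 CPM in 21 mo/O304 mice. Itgb2l was lower in 21 mo mice without overlap, at 0.802, 2.33 and 1.83 CPM against 3.53, 5.23 and 2.82 CPM in 18 mo mice. With O304 it was at 1.80, 1.85 and 3.18 CPM. Ly6g, the defining surface marker of mouse neutrophils, had at most 4 counts in a library, Cd177 at most 7 and Cxcr1 at most 2, and Mrgpra2a and Stfa2 had none.

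**Figure D4:**
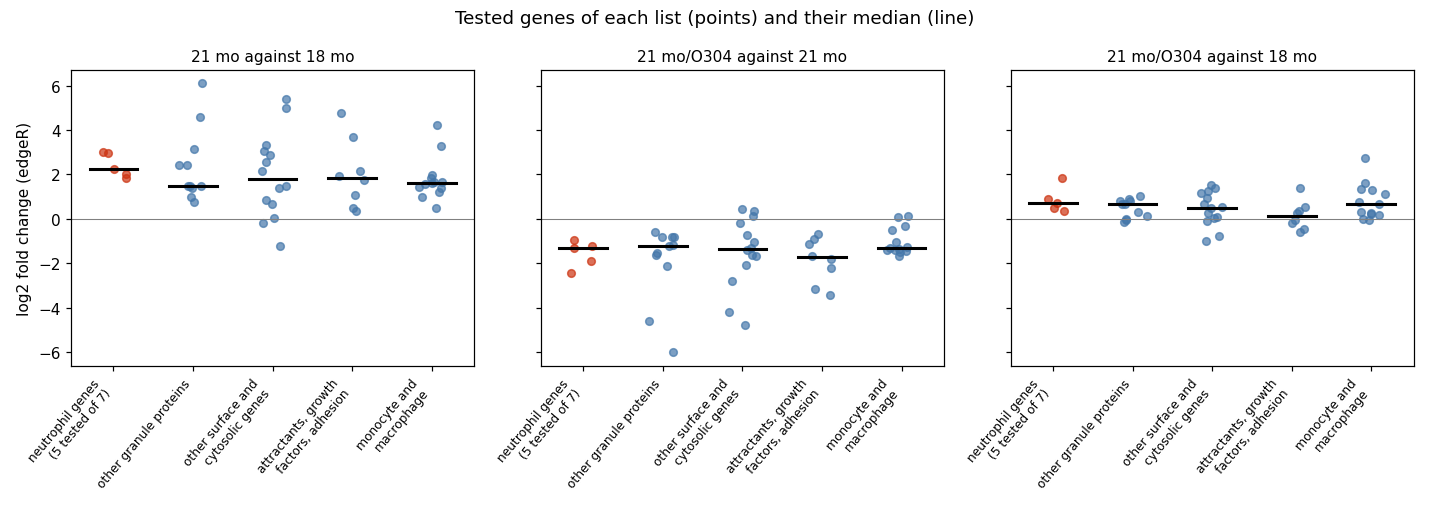
log2 fold changes (vertical axis) of the tested genes of 5 lists in the 3 comparisons, with 1 point a gene and a black line at the median. The 5 tested neutrophil genes are in red, with medians of 2.25, −1.32 and 0.72, and the monocyte and macrophage list stands at 1.60, −1.30 and 0.68.

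Signals that draw neutrophils into tissue differed in which mouse of the 21 mo group was highest. Of 16 attractants, growth factors, cytokines, adhesion molecules and receptors, 8 were tested, and all 8 had log2 fold changes above 0 in 21 mo against 18 mo (median 1.84) and below 0 in 21 mo/O304 against 21 mo (median −1.73). None had an adjusted p under 0.05, while 6 had an unadjusted p under 0.05 in each of these comparisons (edgeR). Of all tested genes, 14% were higher in the first and 12.4% lower in the second at this p. Cxcl1, a main ligand of Cxcr2, was at 1.54, 32.5 and 30.7 CPM in replicates 1 to 3 of the 21 mo group, between 0.866 and 2.71 CPM in 18 mo mice and between 1.13 and 3.43 CPM in 21 mo/O304 mice. Cxcl2 followed the same order, with 0.200, 8.57 and 5.03 CPM in 21 mo mice. Replicate 1 of the 21 mo group thus had the most S100a8 and S100a9 of all mice but Cxcl1 and Cxcl2 levels inside the range of the 18 mo group. The Cxcr2 ligands Ppbp and Cxcl5 lay above that range in this mouse, while Cxcl3, another ligand, and Cxcl15 had no counts in it. Ppbp, which platelets carry, was at 6.48, 0.795 and 1.28 CPM in 21 mo mice and at most 3.59 CPM in 18 mo mice, and Cxcl5 at 0.534, 12.7 and 6.73 CPM and at most 0.246 CPM. Replicate 2, with the fewest calprotectin transcripts of its group, had the most Cxcl1 and Cxcl2. Il1b, which encodes IL-1β, was at 11.3, 7.66 and 58.7 CPM in 21 mo mice against at most 7.36 CPM in 18 mo mice. The adhesion molecules Icam1 and Selp, on which neutrophils leave the vessel, were at 24.5, 74.8 and 51.2 CPM and at 0.735, 1.14 and 2.56 CPM in 21 mo mice, against at most 27.2 and 0.619 CPM in all other mice. Csf3, the gene of G-CSF and hence of the ligand of Csf3r, had at most 17 counts, in replicate 3 of the 21 mo group, and 0 in all 18 mo and 21 mo/O304 libraries.

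The receptors named for calprotectin were measured as well. Tlr4, which encodes its best known receptor, was at 6.35, 8.91 and 15.1 CPM in 21 mo mice, between 2.77 and 3.71 CPM in 18 mo mice and between 3.83 and 5.42 CPM in 21 mo/O304 mice (log2 fold change 1.66, SE 0.33, adjusted p = 0.0626 in 21 mo against 18 mo, edgeR). Cd14, the co-receptor of Tlr4, was at 17.6, 50.2 and 113 CPM in 21 mo mice and at most 15.7 CPM in the other mice. Of 6 such genes, 4 were above 0 in 21 mo against 18 mo with a median of 0.54, and none passed the adjusted threshold. At an unadjusted p under 0.05, 2 were higher (edgeR), beside 14% of all tested genes. With O304 against 21 mo, 4 of the 6 were below 0, with a median of −0.60.

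Of 7 transcription factors of the granulocyte lineage, Cebpe had at most 6 counts in a library, all 6 tested factors had log2 fold changes above 0 in 21 mo against 18 mo (median 0.91), and 5 of 6 below 0 in 21 mo/O304 against 21 mo (median −0.78). None had an adjusted p under 0.05, and 4 and 3 had an unadjusted p under 0.05 (edgeR), beside 14% and 12.4% of all tested genes. Runx1, a factor of blood cell development that other cells use too, was at 5.68, 13.96 and 31.6 CPM in 21 mo mice, between 2.46 and 2.78 CPM in 18 mo mice and between 2.61 and 5.54 CPM in 21 mo/O304 mice. Its order of replicates in 21 mo mice was that of Ltf, Lcn2 and Lyz2, while S100a8 and S100a9 were highest in replicate 1.

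Markers of other blood cells were measured beside the neutrophil genes. All 13 monocyte and macrophage markers had log2 fold changes above 0 in 21 mo against 18 mo, with a median of 1.60, where 52.7% of all tested genes were above 0. Of these 13, 11 were higher without overlap, beside 13.5% of all tested genes, and none had an adjusted p under 0.05. At an unadjusted p under 0.05, 11 were higher (edgeR), beside 14% of all tested genes. Their summed level was between 269 and 395 CPM in 18 mo mice, at 550, 644 and 1764 CPM in 21 mo mice and between 430 and 464 CPM in 21 mo/O304 mice, and none of the list was at 0. With O304 against 21 mo, 11 of the 13 were below 0, with a median of −1.30. Cybb, Lyz2 and Csf3r are used by macrophages as well. The part of monocytes and macrophages in these values, and in those of S100a8 and S100a9, was not tested. Ptprc (CD45), Coro1a and Laptm5, found in all white blood cells, were higher without overlap in 21 mo against 18 mo, with a median log2 fold change of 1.16.

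Red cell transcripts set the mice apart further. The summed level of 8 erythroid genes, mainly hemoglobins, was 290.6, 61.5 and 199 CPM in 18 mo mice, 920, 38.0 and 13.2 CPM in 21 mo mice, and 70.7, 174 and 255 CPM in 21 mo/O304 mice. Replicates 1 and 3 of the 21 mo group, alike in summed neutrophil level at 65.9 and 62.2 CPM, thus held the highest and the lowest erythroid level of all 9 mice. Of 7 erythroid genes tested 5 were above 0 in 21 mo against 18 mo, none at an unadjusted p under 0.05 (edgeR). The 6 platelet genes were at 22.2, 8.80 and 21.3 CPM in 21 mo mice and between 10.4 and 21.3 CPM in the other groups. Retnlg exceeded 2 CPM only in replicates 1 and 3 of the 21 mo group and replicate 3 of the 21 mo/O304 group, and the last had the highest erythroid level of its group. Replicate 1 of the 18 mo group, at 290.6 CPM for the erythroid genes, had 0.433 CPM of Retnlg. The log2 fold change of S100a8 in 21 mo against 18 mo was 1.97 without replicate 1 of the 21 mo group, the mouse with the most erythroid RNA. The part of blood in the tissue in any of these values was not tested.

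**Figure D5:**
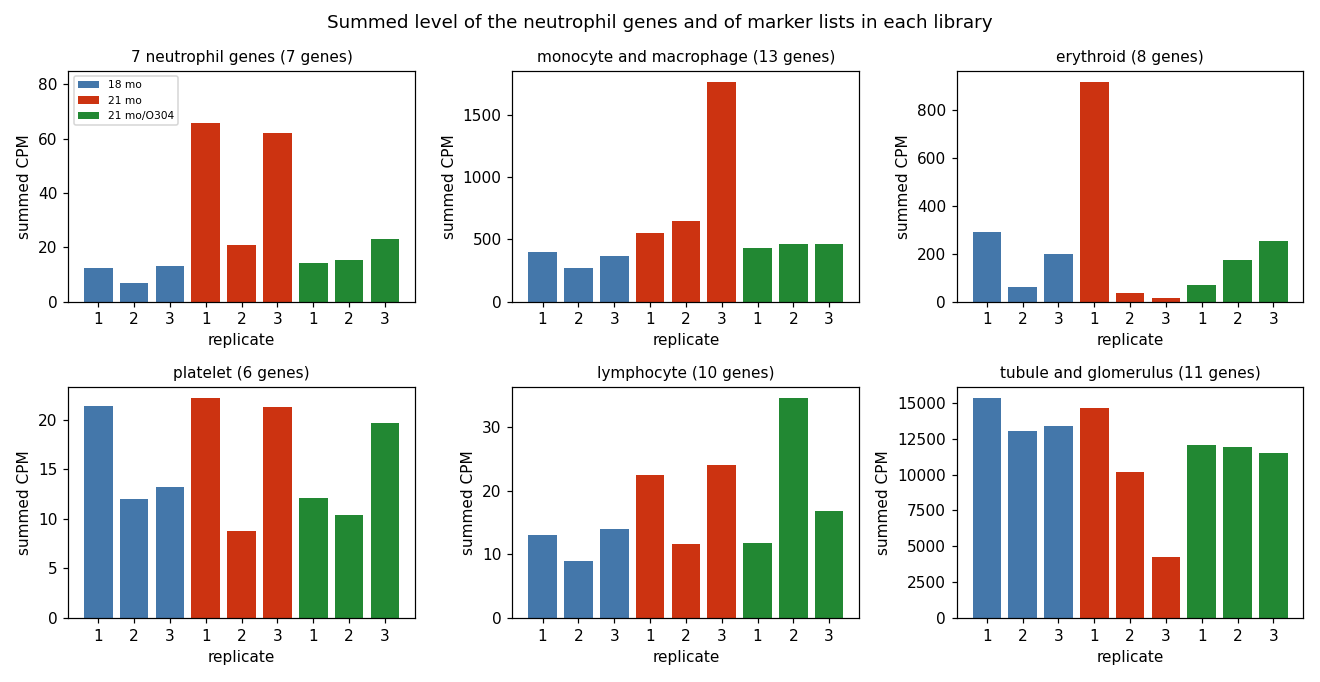
Summed CPM (linear axes from 0, 1 panel a list) of the 7 neutrophil genes and of 5 marker lists in each of the 9 libraries, colored by group and ordered by replicate number. Replicates 1 and 3 of the 21 mo group stand at 65.9 and 62.2 CPM for the neutrophil genes, but at 920 and 13.2 CPM for the erythroid list and at 550 and 1764 CPM for the macrophage list.

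Genes outside all lists were ranked by how alike their pattern over the 9 libraries was to that of the calprotectin pair. Likeness was measured as the Pearson correlation of log2 CPM with the mean of S100a8 and S100a9, over 13807 tested protein-coding genes, and it is given as a description, since libraries of a group share their treatment. The 5 highest were Kat5 (0.966), Prmt9 (0.935), Elk1 (0.931), Primpol (0.928) and 1700025G04Rik (0.923). Their levels covered a narrower range than those of the pair: Kat5, which encodes an acetyltransferase, ranged from 15.3 to 22.1 CPM and Prmt9, a methyltransferase gene, from 13.4 to 18.8 CPM.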

How the data were processed

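Kidney RNA of 9 mice was sequenced, with 1 library a mouse and 3 mice a group. The authors used HISAT2 2.0.5 to align filtered paired-end reads to GRCm38, per the labels, and featureCounts 1.5.0-p3 to count per gene. The deposited counts are whole and not normalized. For the FPKM, the authors scaled each count by gene length and library size. Strand setting and handling of multiply mapped reads are not given in the sources used here, so genes with near-identical copies (such as Stfa and Mrgpra genes) are uncertain. The authors' DESeq2 columns (means, log2 fold changes, p-values) were not used. All 7 symbols matched the RefSeq table of GRCm38.p6 on the same chromosome.
Genes were filtered with filterByExpr (minimum count 10, minimum total 15), normalized by TMM and tested with edgeR 4.0.16 (R 4.3.3, quasi-likelihood, 3 group means over 9 libraries, two-sided, Benjamini-Hochberg over all genes tested). log2 CPM had a prior count of 2. The SE given with edgeR is the absolute log2 fold change divided by the square root of the F statistic. Counts were compared with exact Poisson or binomial intervals (95%). A fold is called a lower bound only against a group at 0 in every library, taken at 3 counts per library. Single genes were compared by the exact permutation test over mice. The tests were tried on simulated counts.
The 7 genes and the lists were chosen with earlier results of these data known. Named are all 7 genes, up to 5 genes per other list with the smallest p-values and those at 0 everywhere. Genes named beyond this rule (Mpo, Elane, Ctsg, Prtn3, Ly6g, Cd177, Cxcr1, Itgb2l, Csf3, Cebpe, Ppbp and Cxcl5) were chosen after their values were seen. Alternatives were DESeq2 1.42.0, upper-quartile factors, no filter beyond 1 count in any library, a fit to the 6 libraries at hand, a block for the replicate number, quality weights in limma 3.58.1 voom, limma-trend on log2(FPKM + 1) or log2(FPKM + 0.1), and each library left out in turn. Leaving out libraries for Ngp and Camp was added after seeing the data. The edgeR p-values set a group difference against the spread between mice, estimated from all 9 libraries and shared in part across genes.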

Additional observations from a re-analysis of the deposited data

How the results depend on the processing

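The number of genes called depended strongly on the fit, while most directions of the neutrophil genes did not. In 21 mo against 18 mo, where edgeR called 3 genes, DESeq2 called 2262, limma voom with quality weights 8409, edgeR on every gene with at least 1 count 576, limma-trend on log2(FPKM + 1) 6, and the fits to only the 6 libraries compared and with the replicate block 0 each. Leaving out 1 library gave 0 to 4186, the latter without replicate 1 of the 21 mo group. In 21 mo/O304 against 21 mo, in place of 0, these were 958 with DESeq2, 6528 with voom, 17 with every gene and 0 to 3808 with 1 library left out. In 21 mo/O304 against 18 mo they were 231, 415, 22 with only the 6 libraries, and 0 to 12. Of the neutrophil genes, in place of 0, DESeq2 called 5, voom 3 and the fit to every gene 4 in 21 mo against 18 mo, the fourth being Ngp, and leaving out 1 library called 0 to 3. In 21 mo/O304 against 21 mo DESeq2 called 1, and leaving out 1 library 0 to 2. Of the 42 further neutrophil genes, in place of 0, 13, 15 and 6 were called by DESeq2, voom and the fit to every gene in 21 mo against 18 mo, and 0 to 15 with 1 library left out. In 21 mo/O304 against 21 mo 6 and 9 were called by DESeq2 and voom, and 0 to 10 with 1 library left out. The direction turned for Retnlg with voom, to −0.48 in 21 mo against 18 mo and 1.56 in 21 mo/O304 against 21 mo, and for Ltf in 21 mo/O304 against 18 mo without replicate 2 of the 21 mo/O304 group, at −0.18 (1 library left out: −0.18 to 1.05). In all other fits in which they were tested, the 5 genes kept their direction. The fit to 6 libraries did not test Retnlg in 21 mo against 18 mo, nor Retnlg and Ltf in 21 mo/O304 against 18 mo. The cause was not tested. Calls without replicate 1 of the 21 mo group rest on 2 mice in that group.

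The replicate numbers of the groups are shared in the labels but are not said to pair mice. Deviations of same-numbered libraries correlated between −0.13 and 0.17, those of other pairs between −0.26 and 0.20, and 4 of 9 libraries correlated best with their own number, so the numbers were not taken to pair mice. The replicate block gave 0 calls in 21 mo against 18 mo, among all genes and among the neutrophil genes, and moved no other count. At 4 counts or fewer a library, as for Ngp and Camp outside the 21 mo group, depth limits what can be said.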

Other observations

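Relatives of the neutrophil genes showed other patterns. Of 15 further S100 genes 8 were tested, and 7 of these had log2 fold changes above 0 in 21 mo against 18 mo, with a median of 0.46, and 7 below 0 in 21 mo/O304 against 21 mo, with a median of −0.48. None had an adjusted p under 0.05 (edgeR), and 3 in each comparison had an unadjusted p under 0.05 in these directions, beside 14% and 12.4% of all tested genes. S100a11 was at 110, 235 and 382 CPM in 21 mo mice, between 73.3 and 97.9 CPM in 18 mo mice and between 76.1 and 104 CPM in 21 mo/O304 mice. S100a10 was at 155, 217 and 284 CPM in 21 mo mice and at most 143 CPM in the other mice. S100a6 was at 33.5, 55.9 and 313 CPM in 21 mo mice and at most 38.7 CPM elsewhere. These 3 genes stood lowest in replicate 1 of the 21 mo group and highest in its replicate 3, whereas S100a8 and S100a9 stood highest in replicate 1. S100g, the calcium-binding calbindin of the distal tubule, was at 159, 182 and 529 CPM in 21 mo mice and between 479 and 751 CPM in 21 mo/O304 mice.

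Of the resistin family, Retn, which in mice is an adipocyte hormone, was at 13.9, 0.536 and 11.3 CPM in 21 mo/O304 mice and at most 0.961 CPM in the 6 other mice. Retnla was at 1.16, 0.714 and 3.82 CPM in 21 mo/O304 mice, at 0 in all 21 mo libraries and at most 0.113 CPM in 18 mo mice, while Retnlb had no counts. Retnlg therefore did not share the pattern of either relative. Of 8 such relatives, which include Csf1r from the macrophage list, 6 were tested and 5 had log2 fold changes above 0 in 21 mo against 18 mo. Trf, which encodes transferrin, an iron carrier related to lactoferrin, was at 4.74, 8.40 and 35.6 CPM in 21 mo mice, between 1.55 and 2.28 CPM in 18 mo mice and between 3.27 and 7.38 CPM in 21 mo/O304 mice.

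The remaining lists were those of lymphocytes and of other granulocytes. The 10 lymphocyte markers summed to between 8.92 and 14.1 CPM in 18 mo mice, 11.7 and 24.0 CPM in 21 mo mice and 11.8 and 34.6 CPM in 21 mo/O304 mice, where replicate 2 was highest. The 9 markers of eosinophils, basophils and mast cells summed to at most 5.81 CPM in any library, and Mcpt8 had no counts, nor had the platelet gene Gp1bb. Of 8 lymphocyte genes tested, 6 had log2 fold changes above 0 in 21 mo against 18 mo (median 0.86) and 4 in 21 mo/O304 against 21 mo. Of the 3 platelet genes tested 1 was above 0 in each of these comparisons. Of 11 tubule and glomerulus genes, 6 were above 0 in 21 mo against 18 mo (median 0.08). At an unadjusted p under 0.05, 3 were lower (edgeR), beside 12% of all tested genes.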
